A study of Mus musculus with 6 samples.

Results

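In the cerebral cortex of 6 outbred mice, 36 gene rows were nearly or wholly without counts in at least 1 animal and well covered in at least 1 other. They were chosen from 33274 rows of a table of counts per gene by 2 thresholds. A row had to have 2 or fewer counts in at least 1 of the 6 libraries, called off here, and 100 or more counts in at least 1 library, called on. Mitochondrially encoded genes were left out. The 36 rows made up 0.108% of all rows and 0.267% of the 13470 rows that reached 100 counts in any library. The counts themselves chose the rows, so that a row was on in one animal and off in another is a description and not a result.

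The libraries came from female ICR mice, an outbred stock, labelled as wild type and sampled at 6 weeks of age. In the methylphenidate lineage (3 libraries) the grandsire had received methylphenidate at 15 mg/kg, and in the saline lineage (3 libraries) the grandsire had received saline at 10 mL/kg. Both were given under the skin for 21 days, to males that were 6 weeks old at the start. The grandsires were mated with females that had received no drug, and so were their sons, so none of the sampled mice had been dosed. Methylphenidate blocks the reuptake of dopamine and noradrenaline. The labels do not say which of the 6 mice shared a litter or a sire, and p-values therefore measure only the spread between these samples. Poly(A) RNA was sequenced with a directional kit. Total counts were between 23896752 and 28120640 in the methylphenidate lineage and between 24000528 and 26914606 in the saline lineage. Levels are given as CPM, the count scaled to library size. Counting error alone means that where 0 counts were found, as many as 3 counts (between 0.106 and 0.124 CPM, by library) could be present. All 10 cortical neuron markers had rows, with a summed level of 2060 to 2390 CPM in the methylphenidate lineage and 2190 to 2250 CPM in the saline lineage.

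A row of a count table can be empty in one animal and full in another for several known reasons. Mice of an outbred stock carry different alleles, including deletions and extra copies of genes. Gene annotations also hold readthrough models, which join the exons of neighbouring genes into 1 model, and retrogenes or processed pseudogenes, which are copies of a messenger RNA put back into the genome. A read from an exon that belongs to 2 models, or from a copy that matches its parent, has no unique home. Reads assembled into transcripts can then be given to one row in one library and to another row in the next. A piece of neighbouring tissue in a dissection can also bring in genes that the cortex hardly uses.

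The following stretches show what the overlapping models share. Il10rb, a receptor subunit for interleukin 10 and related cytokines, and the readthrough model Gm21970, both on chromosome 16, share 60 coding bases printed here without a single difference. The same holds for both rows of Septin2, a gene of the septin cytoskeleton on chromosome 1. No base is in capitals because none differs.
Il10rb: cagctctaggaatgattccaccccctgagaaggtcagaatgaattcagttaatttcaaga
Gm21970: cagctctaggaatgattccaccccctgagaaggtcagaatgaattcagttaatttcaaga
Septin2 main row: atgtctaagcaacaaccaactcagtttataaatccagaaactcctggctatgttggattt
Septin2 on-off row: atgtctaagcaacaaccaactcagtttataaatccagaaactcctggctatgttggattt
The sequences come from transcripts of GENCODE M21, an annotation of the mouse genome build GRCm38. The counts were made on GRCm39, so that annotation was used here for names, sequences, chromosomes and overlaps only, and no coordinates are given.

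A second set of stretches shows copies at different places. Rps18, on chromosome 17, encodes a protein of the small ribosomal subunit. Rps18-ps6 and Rps18-ps4 are annotated over one another on opposite strands of chromosome 13. Gm13691 and Gm13695 are neighbouring copies on chromosome 2. Capitals mark the bases that differ within each group of 60-base stretches, 2 among the Rps18 copies and 1 in the other pair. Rps18-ps4 is printed in its own direction and is the reverse complement of the Rps18-ps6 stretch.
Rps18: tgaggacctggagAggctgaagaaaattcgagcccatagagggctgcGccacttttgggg
Rps18-ps6: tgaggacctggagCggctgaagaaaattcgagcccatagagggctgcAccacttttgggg
Rps18-ps4: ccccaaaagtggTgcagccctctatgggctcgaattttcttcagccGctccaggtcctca
Gm13691: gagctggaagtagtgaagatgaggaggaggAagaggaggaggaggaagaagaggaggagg
Gm13695: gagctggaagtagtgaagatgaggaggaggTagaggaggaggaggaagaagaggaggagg

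No on-off pattern matched the lineages in full. In 0 of the 36 rows were all 3 libraries of one lineage on and all 3 of the other off. Only a row with exactly 3 libraries off and 3 on could have shown this. Of the 8 rows with 3 off, only Gm45062, the Septin2 on-off row and ENSMUSG00000121464 had 3 on. When the 6 libraries of each row were parted at their largest gap, 0 of the 36 partings followed the lineages, and the 36 rows fell into 24 different partings. Only a parting of 3 against 3 libraries can follow the lineages, and most rows were not parted so. Both values of 0 were thus largely set in advance. In 26 rows the upper side of the gap held libraries of both lineages. An upper side of 4 or 5 libraries always does, and one of 1 library never can, so this number depends on the size of that side. The 26 include Gpr101, Krt20, Tmem181b-ps and Gm13695, in which all 3 values of one lineage lay above those of the other. Libraries that were on came from both lineages in 15 rows, from the methylphenidate lineage alone in 14 and from the saline lineage alone in 7. Libraries that were off came from both lineages in 17 rows, from the methylphenidate lineage alone in 7 and from the saline lineage alone in 12. These numbers rest on counts not scaled to library size, and how they divide over other rows was not analysed here. Methylphenidate replicate 2 had the highest total, 28120640 counts, and also the most rows on, 18. Exactly 1 library was off in 17 rows, 2 in 4 rows, 3 in 8 rows, 4 in 4 rows and 5 in 3 rows. In 10 rows every library was either on or off, and in the other 26 at least 1 library lay between the thresholds.

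**Figure D1:**
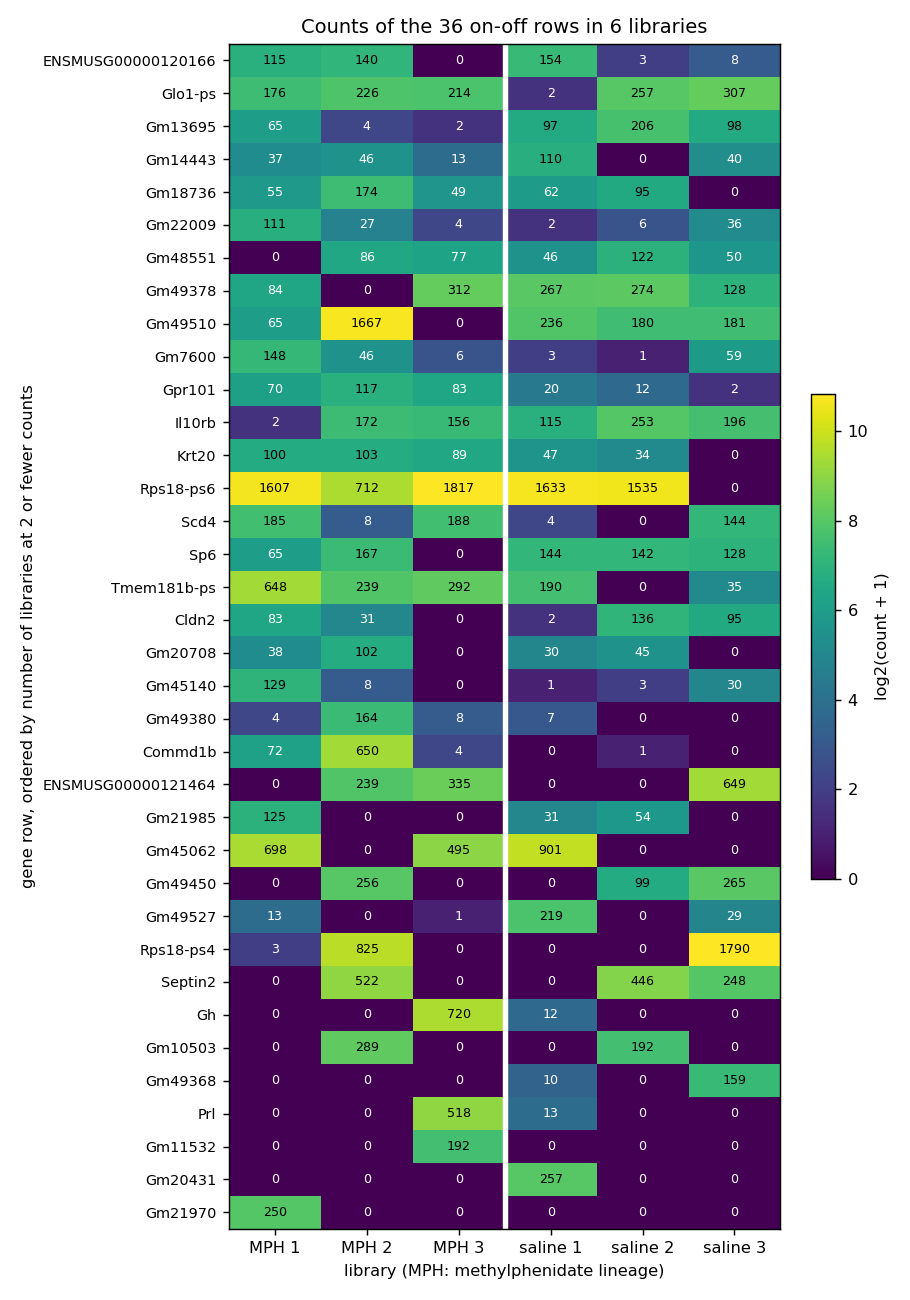
Counts of the 36 on-off rows (down the page, ordered by how many libraries were off) in the 3 methylphenidate lineage libraries (MPH) and the 3 saline lineage libraries, with the count printed in each cell and colour on a log2(count + 1) scale. Dark cells lie on both sides of the white line between the lineages, and no row has 3 libraries on one side all on and 3 on the other all off.

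Rows that were off were spread over all 6 libraries. The number of rows that were off was 11, 10 and 16 in the methylphenidate libraries and 12, 16 and 15 in the saline libraries. The number that were on was 12, 18 and 11 in the methylphenidate libraries and 11 in each saline library. Any 2 libraries could be compared by how many of the 36 rows were in the same state, on, off or between. The 9 pairs of 1 methylphenidate and 1 saline library had 11 to 22 rows in the same state, with a median of 14. The 6 pairs within a lineage had 11 to 17, with a median of 14.5. The pair with the most rows in common, 22, was methylphenidate replicate 2 and saline replicate 3.

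The lineages did not overlap in CPM in 5 of the 36 rows, or 13.9%. This was near the background, since the lineages did not overlap in 13.5% of the 18327 genes tested, in 14.7% of the rows that reached 100 counts and in 9.61% of all rows. The methylphenidate lineage was the higher in 4 of them (Gpr101, Krt20, Commd1b and Tmem181b-ps) and the lower in 1 (Gm13695). Of the 36 rows, 25 passed the filter on low counts of edgeR and 11 did not, among them Gh, Prl, Gm10503, Rps18-ps4 and Commd1b. None of the 25 was called by edgeR's quasi-likelihood test at an adjusted p of 0.05, where 0.0273% of all genes tested were. At an unadjusted p under 0.05 there were 5 of the 25, where 7.51% of all genes tested were. In 4 of these 5, Gpr101, Krt20, Gm49527 and Gm13695, only libraries of the higher lineage reached 100 counts. The rows were chosen for their spread in these same counts, so these shares and the fold changes that follow are no evidence on the lineages. DESeq2 gave an adjusted p to 25 of the 36 and none to the other 11. It called 2 of its 25, Gpr101 and Commd1b, where it called 0.65% of all genes to which it gave an adjusted p. Among the 25 tested rows the log2 fold change, methylphenidate minus saline, was above 0 in 14 and below 0 in 11, with a median of 0.44 against 0 over all genes tested. Its standard error had a median of 1.1 in these rows against 0.15 over all genes tested.

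Rows that share exons with a neighbouring gene made up the largest group. How common such sharing is over all rows was not analysed here, so the size of this group has no background to compare with. Of the 34 rows found in GENCODE M21, 20 shared exonic bases with another row of the table, on the same strand as their main partner in 16 and on the opposite strand in 4. The partner is the row that shares most of the on-off row's exonic bases. Of the 20, 14 shared bases on the same strand with 2 or more rows, as a readthrough model does. The coefficient of variation (CV) of CPM over the 6 libraries had a median of 150% in the 20 rows and 33.4% in their partners. For the sum of each row and its partner it was 11.8%, against 12.9% for all genes tested. The sum varied less than the partner alone in 16 of the 20. The partner was at its lowest in the library where the on-off row was at its highest in 12 of the 20. In 6 of the 20 the partner was itself an on-off row, chosen for varying, and these 6 form 3 pairs in which each row is the partner of the other, so the 20 rows give 17 different sums. In the other 14 rows the median CV was 150%, that of their partners 18.2% and that of the sums 8.73%. The sum varied less than the partner in 10 of these 14, and the partner was lowest where the row was highest in 8. How the reads were divided between overlapping models was not tested, since no alignments were used here.

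Gm45062 was on in 3 libraries, and Glcci1, a glucocorticoid-induced gene, was low in the same 3. Gm45062, whose exons overlap Glcci1 and Umad1, had 698, 0 and 495 counts in the methylphenidate libraries and 901, 0 and 0 in the saline libraries. Glcci1 had 574, 1355 and 750 counts in the methylphenidate libraries and 640, 1268 and 1339 in the saline libraries. These were 2 libraries of the methylphenidate and 1 of the saline lineage. The sum was 1272, 1355 and 1245 counts in the methylphenidate libraries and 1541, 1268 and 1339 in the saline libraries, with a CV of 7.65% where Glcci1 alone had 36%.

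Commd1b overlaps B3gnt2, a glycosyltransferase gene, and reaches into Commd1, a gene of copper and endosomal transport. It had 72, 650 and 4 counts in the methylphenidate libraries and 0, 1 and 0 in the saline libraries. The lineages did not overlap, although a single library held most of the counts. In that library B3gnt2 was at its lowest. B3gnt2 had 573, 116 and 692 counts in the methylphenidate libraries and 682, 487 and 503 in the saline libraries. The sums were 645, 766 and 696 counts in the methylphenidate libraries and 682, 488 and 503 in the saline libraries, with a CV of 15.5%. DESeq2 called Commd1b (log2 fold change 9.26, SE 2.29, DESeq2 adjusted p = 0.015), and edgeR's filter left it out. The saline libraries were at or under the 3 counts that a count of 0 allows, so this fold change is no measured ratio.

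Gm49527 overlaps Commd5, a gene of the same COMMD family, and Zfp7. Gm49527 had 13, 0 and 1 counts in the methylphenidate libraries and 219, 0 and 29 in the saline libraries. Commd5 had 224, 325 and 310 counts in the methylphenidate libraries and 83, 321 and 288 in the saline libraries. Commd5 was lowest in saline replicate 1, the animal in which Gm49527 was on. Their sums were 237, 325 and 311 counts in the methylphenidate libraries and 302, 321 and 317 in the saline libraries. The log2 fold change of Gm49527 was -4.06 (SE 1.52, edgeR adjusted p = 0.604). Leaving out saline replicate 1 gave -1.64, and leaving out methylphenidate replicate 1 gave -7.06.

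The second row of Septin2, all of whose exonic bases lie in the main row, had 0, 522 and 0 counts in the methylphenidate libraries and 0, 446 and 248 in the saline libraries. The main row had 1429, 1188 and 1603 counts in the methylphenidate libraries and 1753, 1140 and 1389 in the saline libraries. The 3 animals in which the second row was on were those in which the main row was lowest. Together they had 1429, 1710 and 1603 counts in the methylphenidate libraries and 1753, 1586 and 1637 in the saline libraries, with a CV of 5.76% where the main row had 19.0%. Of the 59 symbols with several rows in the table, Septin2 was the only one among the 36.

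Il10rb was off in 1 animal only. It had 2, 172 and 156 counts in the methylphenidate libraries and 115, 253 and 196 in the saline libraries. Gm21970, which joins Il10rb with Ifnar2, a type I interferon receptor gene, had 250 counts in methylphenidate replicate 1 and 0 in the 5 other libraries. The animal in which Il10rb was off was thus the one in which Gm21970 was on. The sums were 252, 172 and 156 counts in the methylphenidate libraries and 115, 253 and 196 in the saline libraries, so the 2 lineages overlapped. Il10ra, the ligand-binding subunit, had 131, 152 and 145 counts in the methylphenidate libraries and 117, 150 and 190 in the saline libraries.

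**Figure D2:**
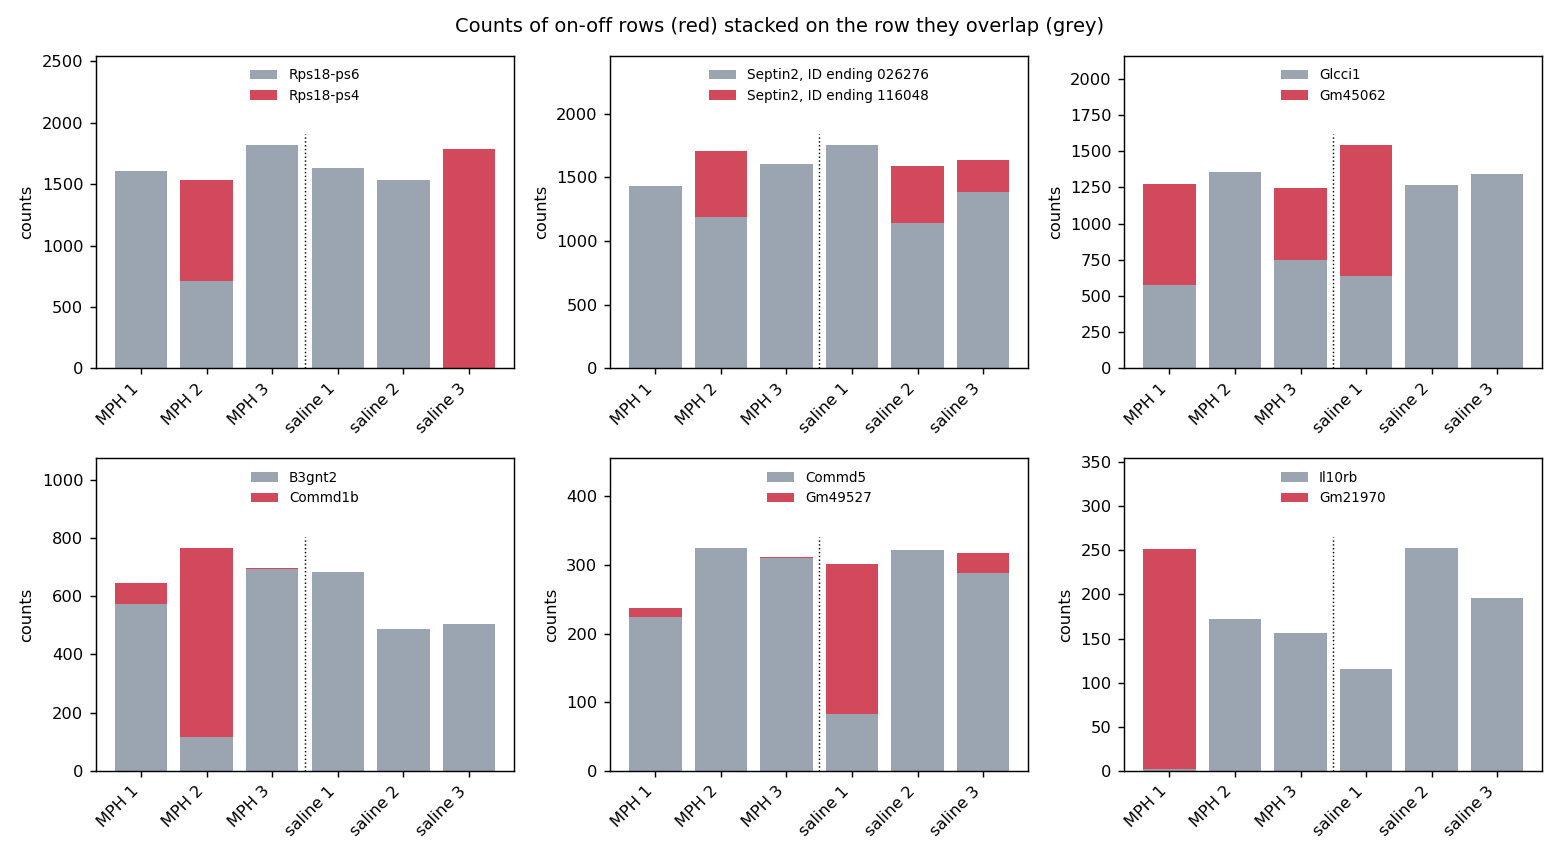
Counts of 6 on-off rows (red) stacked on the row with which each shares exonic bases (grey), by library, methylphenidate lineage (MPH) left and saline lineage right of the dotted line. Red bars stand where grey bars are low, and the summed height lies between 1535 and 1817 counts for Rps18-ps4 and Rps18-ps6 and between 1245 and 1541 for Gm45062 and Glcci1.

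The readthrough models Gm45140, Gm49368 and Gm49380 had fewer counts in every library than their partner. Gm45140 overlaps Rab43, a small GTPase gene, and had 129, 8 and 0 counts in the methylphenidate libraries and 1, 3 and 30 in the saline libraries. Its sum with Rab43 had a CV of 5.65% where Rab43 alone had 10.3%. Gm49368 overlaps Itgam, which encodes the CD11b integrin of microglia and myeloid cells. Gm49368 had 0 counts in each methylphenidate library and 10, 0 and 159 in the saline libraries. The sum with Itgam had a CV of 14.6%, against 20.6% for Itgam alone. For Gm49380 (4, 164 and 8 counts in the methylphenidate libraries; 7, 0 and 0 in the saline libraries) and Rnf26, a ubiquitin ligase gene, these values were 11% and 17.5%.

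In most of the other models, summing with the main partner moved its spread little. Gm20431 overlaps Ube2v1, a ubiquitin-conjugating enzyme variant gene, and had 257 counts in saline replicate 1 and 0 in every other library. Ube2v1 had 3127, 3543 and 3245 counts in the methylphenidate libraries and 3245, 2981 and 3146 in the saline libraries. The sum had a CV of 5.1%, against 4.84% for Ube2v1. Gm49450 overlaps the alpha-tubulin genes Tuba1a and Tuba1b, and had 0, 256 and 0 counts in the methylphenidate libraries and 0, 99 and 265 in the saline libraries. The sum with Tuba1a had a CV of 9.8%, against 9.7% for Tuba1a. Gm48551 and Gm49378 overlap Dohh and Ipo4, whose CVs of 6.39% and 6.33% became 6.56% and 6.19% in the sums. Gm48551 also overlaps Gm48552, which was lowest, at 7 counts, in saline replicate 2, where Gm48551 was highest, at 122. The CV of Gm48552 was 57.6% alone and 28.9% in the sum with Gm48551. Gm48551 was off in methylphenidate replicate 1 alone and Gm49378 in methylphenidate replicate 2 alone. Gm21985 had 125, 0 and 0 counts in the methylphenidate libraries and 31, 54 and 0 in the saline libraries. Gm20708, off in methylphenidate replicate 3 and saline replicate 3, overlaps the kynurenine pathway gene Afmid, and the CV was 33.6% in the sum where Afmid alone had 53.0%.

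Gm49510 held the highest count of any readthrough model. It had 65, 1667 and 0 counts in the methylphenidate libraries and 236, 180 and 181 in the saline libraries. It overlaps Sh3bp1, a GTPase-activating protein gene, and Pdxp, a phosphatase of pyridoxal phosphate. The sum with Sh3bp1, the main partner, had a CV of 61.4%, above the 30.8% of Sh3bp1. With Pdxp it had 3.59%, where Pdxp alone had 14.2%. Pdxp had 3687, 2964 and 3978 counts in the methylphenidate libraries and 3891, 3670 and 3476 in the saline libraries. It was lowest in methylphenidate replicate 2, where Gm49510 was highest. The sum over all 3 rows had a CV of 3.55%.

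**Figure D3:**
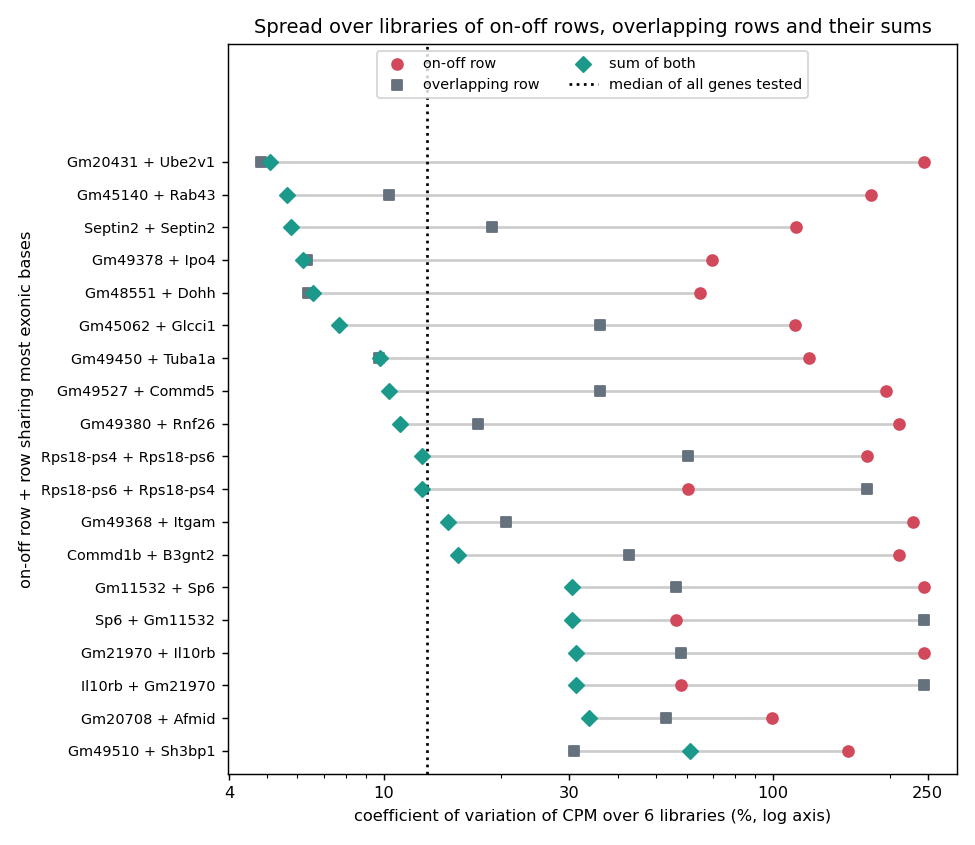
Coefficient of variation of CPM over the 6 libraries (log axis, %) for on-off rows that share exonic bases with another row (red; 1 is not drawn), for that row (grey) and for their sum (green), with the median of all genes tested as a dotted line. Over all 20 the median is 150% for the on-off rows, 33.4% for their partners, of which 6 are on-off rows too, and 11.8% for the sums, and Gm49510 is one of 4 rows whose sum with its main partner is not below that partner.

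Rps18-ps6 and Rps18-ps4 had the highest counts of the 36 rows. Rps18-ps6 had 1607, 712 and 1817 counts in the methylphenidate libraries and 1633, 1535 and 0 in the saline libraries. Rps18-ps4 had 3, 825 and 0 counts in the methylphenidate libraries and 0, 0 and 1790 in the saline libraries. Each was high where the other had 3 or fewer counts, and in methylphenidate replicate 2 both were on. Their sum was 1610, 1537 and 1817 counts in the methylphenidate libraries and 1633, 1535 and 1790 in the saline libraries, with a CV of 12.5% where the rows had 60.6% and 175%. Exonic bases of Rps18-ps4 cover 96.4% of those of Rps18-ps6, on the opposite strand. Whether reads were counted by strand is not stated in the labels, so reads of both cannot be told apart. The sums did not part the lineages.

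The parent gene Rps18 and the copy Rps18-ps5 were never off. Rps18 had 230, 206 and 218 counts in the methylphenidate libraries and 247, 187 and 170 in the saline libraries. Rps18-ps5 had 1152, 1154 and 1231 counts in the methylphenidate libraries and 1249, 1166 and 1275 in the saline libraries. The transcript of Rps18-ps6 matched that of Rps18 at 99.08% of 545 bases. Levels within the Rps18 family are uncertain, since reads of copies this alike could be counted at any of them.

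Sp6 and Gm11532 formed the other pair on opposite strands. Sp6 encodes a transcription factor of skin and teeth. It had 65, 167 and 0 counts in the methylphenidate libraries and 144, 142 and 128 in the saline libraries. Gm11532 had 192 counts in methylphenidate replicate 3, the only library in which Sp6 was off, and 0 in the 5 others. The sums were 65, 167 and 192 counts in the methylphenidate libraries and 144, 142 and 128 in the saline libraries, with a CV of 30.5%. Of the 3 pairs of on-off rows within 1 Mb of each other (this one, Il10rb with Gm21970, and the Rps18 copies), 0 had the same parting of the libraries.

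Some rows had copies elsewhere in the genome, and how common this is over all rows was not analysed here. For 18 of the 36 rows a similar transcript of another gene was found, in some over a short stretch only. The match covered 63 bases (4.55%) of the Gm49527 transcript and 74 bases (2.65%) of the Il10rb transcript. Of the 36 rows, 8 had a copy of at least 95% identity over at least 50% of their length. These 8 were Rps18-ps6, Rps18-ps4, Glo1-ps, Gm13695, Gm7600, Gm49380, Gm49450 and Gm18736. Counts of such rows are uncertain for the same reason as in the Rps18 family.

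Gm13695 belongs to an array of near-identical genes on chromosome 2, and its transcript matched that of Gm13691 at 99.96% of 2493 bases. Gm13695 had 65, 4 and 2 counts in the methylphenidate libraries and 97, 206 and 98 in the saline libraries. The 7 rows Gm13691 and Gm13693 to Gm13698 together had 675, 36 and 21 counts in the methylphenidate libraries and 797, 1643 and 1057 in the saline libraries. All 7 were low in methylphenidate replicates 2 and 3, where each had at most 8 and 4 counts. In methylphenidate replicate 1 each had at least 61, where each had at least 86 in saline replicate 1. The other 6 missed the choice only because their lowest count was 3 or 4. The log2 fold change of Gm13695 was -2.46 (SE 0.89, edgeR adjusted p = 0.592), with means of 0.973 ± 1.49 CPM in the methylphenidate lineage and 5.27 ± 2.42 CPM in the saline lineage (SD, n = 3 each). Without methylphenidate replicate 1 it was -5.48 (edgeR adjusted p = 0.0129), so the call depended on 1 animal. Gm13690 did not move with them, at 10, 42 and 52 counts in the methylphenidate libraries and 31, 46 and 47 in the saline libraries.

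Gm7600 is a processed pseudogene of Rps3a1, another small ribosomal subunit gene, and matched it at 98.23% of 789 aligned bases. It had 148, 46 and 6 counts in the methylphenidate libraries and 3, 1 and 59 in the saline libraries. Other rows of the family, looked at after these values were seen, also varied. Rps3a1 had 2290, 5570 and 3658 counts in the methylphenidate libraries and 6605, 6117 and 5288 in the saline libraries. Rps3a2 had 2250, 777 and 1371 counts in the methylphenidate libraries and 55, 45 and 749 in the saline libraries. Rps3a3 had 865, 57 and 1051 counts in the methylphenidate libraries and 13, 31 and 43 in the saline libraries. Rps3a1 was lowest in methylphenidate replicates 1 and 3, where Rps3a2 and Rps3a3 were highest. The sum over these 4 rows was 5553, 6450 and 6086 counts in the methylphenidate libraries and 6676, 6194 and 6139 in the saline libraries, with a CV of 5.01%. The edgeR adjusted p of Rps3a1, Rps3a2, Rps3a3 and Gm7600 was 0.48, 0.604, 0.22 and 0.814.

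The sum over the Tmem181 copies varied more than their parent gene. Tmem181b-ps, an unprocessed pseudogene on chromosome 17 that is identical to Tmem181a over 456 bases, had 648, 239 and 292 counts in the methylphenidate libraries and 190, 0 and 35 in the saline libraries. The lineages did not overlap (log2 fold change 2.43, SE 0.92, edgeR adjusted p = 0.604). It was 4.46 without saline replicate 1, 1.85 without saline replicate 2 and 1.81 without methylphenidate replicate 1. Tmem181c-ps had 835, 506 and 1012 counts in the methylphenidate libraries and 782, 58 and 1134 in the saline libraries. The 3 Tmem181 rows summed to 2881, 2005 and 2808 counts in the methylphenidate libraries and 2777, 1034 and 2920 in the saline libraries. The sum was lowest in replicate 2 of each lineage, a number that only names the animals, and its CV was 34.4%, where Tmem181a alone had 23.7%.

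Gm18736, also on chromosome 17, matched the mitochondrial ribosomal protein gene Mrps10 at 98.42% of 570 bases. It had 55, 174 and 49 counts in the methylphenidate libraries and 62, 95 and 0 in the saline libraries. Mrps10 had 436, 295 and 465 counts in the methylphenidate libraries and 392, 270 and 532 in the saline libraries. Gm18736 was highest, and Mrps10 lowest, in replicate 2 of each lineage. Together they had 491, 469 and 514 counts in the methylphenidate libraries and 454, 365 and 532 in the saline libraries, with a CV of 16.4% where Mrps10 alone had 30%.

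Gm10503 was on in the same 2 animals, replicate 2 of each lineage, and it lies on chromosome 17 near Glo1, which encodes glyoxalase 1, an enzyme that removes methylglyoxal. Gm10503 is annotated antisense to Glp1r, the receptor gene for glucagon-like peptide 1, without sharing exonic bases. Gm10503 had 0, 289 and 0 counts in the methylphenidate libraries and 0, 192 and 0 in the saline libraries. Glp1r had 28, 29 and 21 counts in the methylphenidate libraries and 28, 32 and 24 in the saline libraries, and did not move with it. Glo1 did, with 1634, 3099 and 1630 counts in the methylphenidate libraries and 2161, 3045 and 1216 in the saline libraries. Its 2 highest values were those of the animals in which Gm10503 was on. Dnah8, an axonemal dynein gene next to Glo1, had 15, 61 and 10 counts in the methylphenidate libraries and 15, 46 and 32 in the saline libraries, highest in the same animals. Btbd9, a further neighbour, had 2218, 2567 and 1930 counts in the methylphenidate libraries and 2234, 2092 and 2051 in the saline libraries. It did not follow Gm10503. Nor did Zfand3, at 83.6, 76.6 and 73.1 CPM in the methylphenidate libraries and 73.9, 70.2 and 73.4 CPM in the saline libraries. Abcg1 had 48.1, 63.0 and 59.7 CPM in the methylphenidate libraries and 55.1, 59.2 and 59.5 CPM in the saline libraries. These neighbours were chosen after their values were seen. A gain of copies that takes in Glo1 is known as background among mouse strains, but no genomic DNA was analysed here and its part was not tested.

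Glo1-ps, a copy of Glo1 on chromosome 2, did not follow it. Glo1-ps had 176, 226 and 214 counts in the methylphenidate libraries and 2, 257 and 307 in the saline libraries, and was off in saline replicate 1 alone. Its transcript matched that of Glo1 at 99.46% of 555 bases. The log2 fold change of Glo1-ps was 0.08 (SE 0.84, edgeR adjusted p = 0.992).

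**Figure D4:**
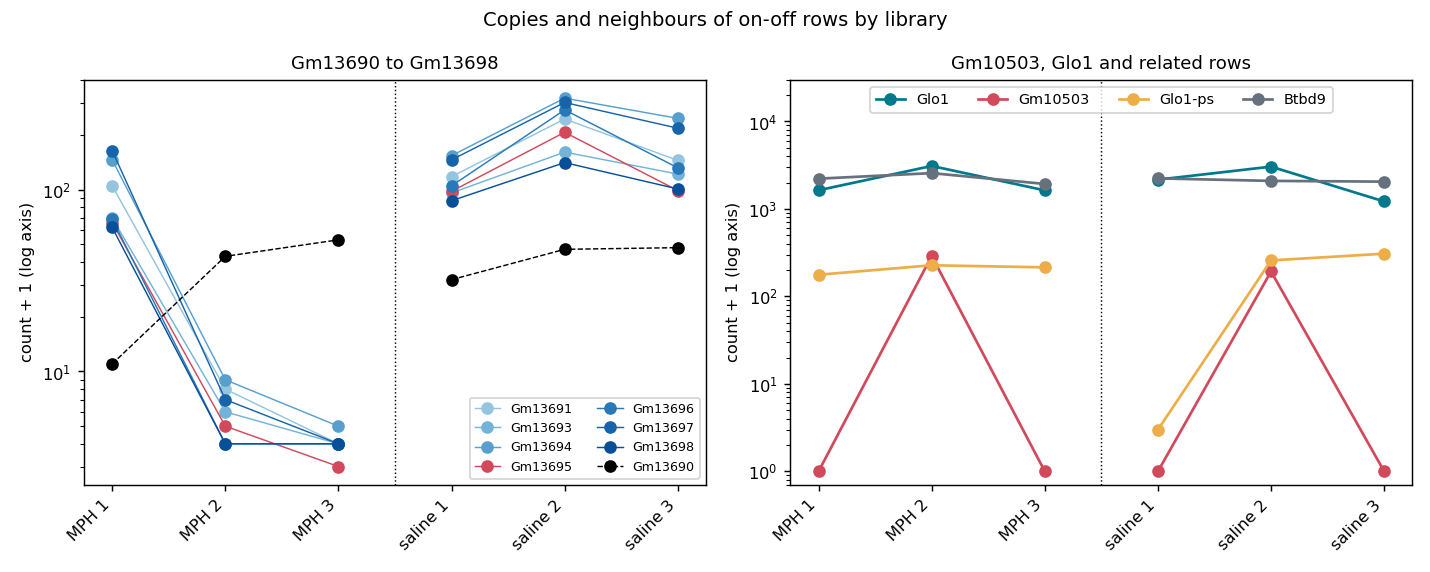
Count + 1 on a log axis by library, methylphenidate lineage (MPH) left and saline lineage right of the dotted lines, with lines that only join the points of 1 gene within a lineage. On the left, 7 near-identical genes with Gm13695 in red are low together in methylphenidate replicates 2 and 3 while Gm13690 (dashed) is not, and on the right Gm10503 is on, at 289 and 192 counts, in the 2 animals in which Glo1 is highest.

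A few of the 36 rows are genes of tissues next to the cortex. Gh and Prl encode growth hormone and prolactin, the hormones of the anterior pituitary. Gh had 0, 0 and 720 counts in the methylphenidate libraries and 12, 0 and 0 in the saline libraries. Prl had 0, 0 and 518 counts in the methylphenidate libraries and 13, 0 and 0 in the saline libraries. Both were therefore on in methylphenidate replicate 3 alone and at a low level in saline replicate 1. Pomc, the precursor of corticotropin, had 38, 55 and 471 counts in the methylphenidate libraries and 49, 66 and 36 in the saline libraries. Cga, the shared subunit of the pituitary glycoprotein hormones, had 20 counts in methylphenidate replicate 3 and 0 in the 5 others. Of the other pituitary hormone genes, Tshb had 21 to 41 counts in the methylphenidate libraries and 21 to 37 in the saline libraries. Lhb was at 0 in methylphenidate replicate 3. The 6 of 8 pituitary markers with rows summed to 3.15, 2.81 and 73.0 CPM in the methylphenidate libraries and 4.38, 3.72 and 3.06 CPM in the saline libraries. None was called, and the 2 tested were Pomc (edgeR adjusted p = 0.645) and Tshb (edgeR adjusted p = 0.986). The part of pituitary tissue in the dissected samples was not tested.

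Cldn2, the tight junction gene of the choroid plexus epithelium, had 83, 31 and 0 counts in the methylphenidate libraries and 2, 136 and 95 in the saline libraries. It was off in methylphenidate replicate 3 and saline replicate 1, the 2 libraries with Gh and Prl counts. Ttr, which encodes transthyretin and is the most abundant choroid plexus transcript, had 11075, 5052 and 408 counts in the methylphenidate libraries and 957, 15000 and 9089 in the saline libraries. All 10 choroid plexus markers had rows, and they summed to 522, 209 and 27.0 CPM in the methylphenidate libraries and 46.7, 688 and 435 CPM in the saline libraries. All 10 were tested and had a log2 fold change below 0, with a median of -0.69 against 0 for all genes tested, and edgeR called 0 of them. The log2 fold change of Cldn2 was -1.04 (SE 1.17, edgeR adjusted p = 0.887). In bulk tissue, fewer cells of a type and less RNA per cell cannot be told apart, and the part of choroid plexus in the samples was not tested.

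Gpr101, an orphan receptor gene on the X chromosome whose mouse RNA is known from the hypothalamus and the ventral striatum, was the on-off row with the smallest p. It had 70, 117 and 83 counts in the methylphenidate libraries and 20, 12 and 2 in the saline libraries. The lineages did not overlap. Mean levels were 3.48 ± 0.608 CPM in the methylphenidate lineage and 0.438 ± 0.341 CPM in the saline lineage (SD, n = 3 each). The log2 fold change was 2.96 (SE 0.53), with an edgeR adjusted p of 0.148 and a DESeq2 adjusted p of 1.38e-05. Leaving out any 1 library gave a log2 fold change between 2.49 and 3.62, with an edgeR adjusted p between 0.134 and 0.488.

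Striatal markers had log2 fold changes in the same direction as Gpr101. The 11 markers of striatal projection neurons summed to 632, 352 and 842 CPM in the methylphenidate libraries and 357, 296 and 256 CPM in the saline libraries. All 11 were tested and had a log2 fold change above 0, with a median of 1.17 against 0 for all genes tested, and edgeR called 0 of them. Adora2a, the adenosine receptor gene of the indirect pathway neurons, had 536, 194 and 959 counts in the methylphenidate libraries and 199, 104 and 54 in the saline libraries. Among the methylphenidate libraries Adora2a was lowest in replicate 2, where Gpr101 was highest. Among the saline libraries both were highest in replicate 1 and lowest in replicate 3. The 10 of 11 hypothalamic and basal forebrain markers with rows summed to 12.2, 9.11 and 16.5 CPM in the methylphenidate libraries and 3.24, 1.88 and 3.31 CPM in the saline libraries. Of these, 6 were tested, and all 6 had a log2 fold change above 0, with a median of 2.29 against 0 for all genes tested, and edgeR called 0 of them. The part of either tissue in the level of Gpr101 was not tested.

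**Figure D5:**
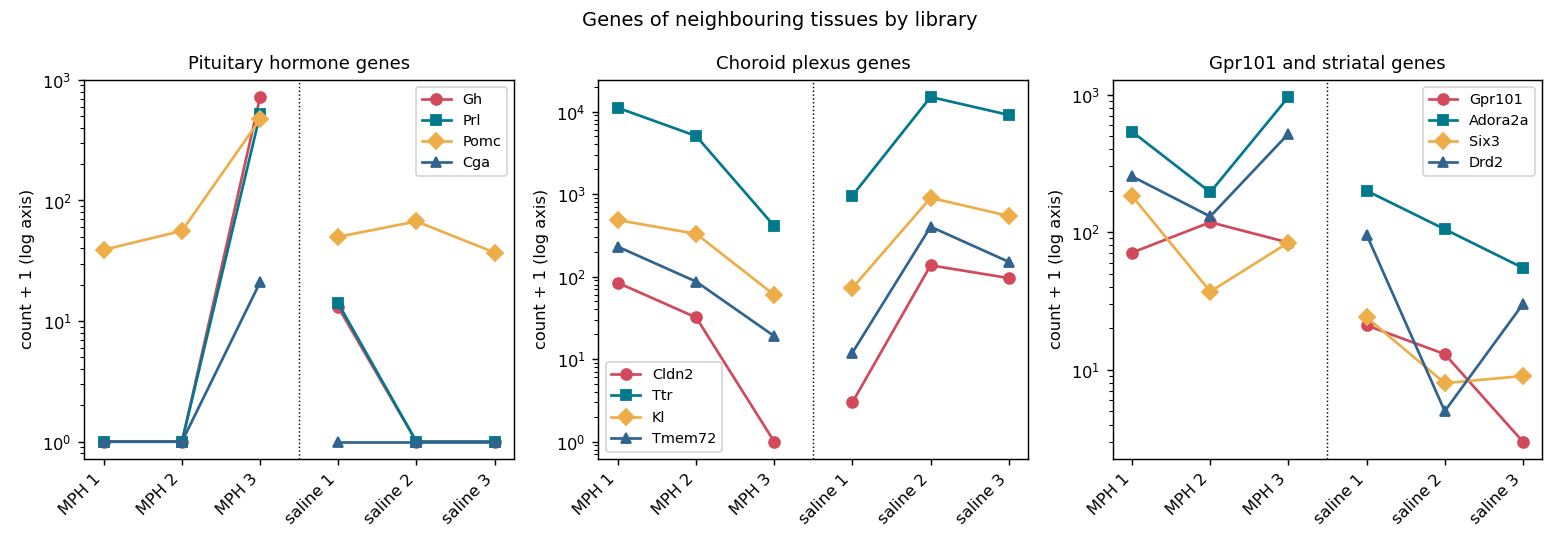
Count + 1 on a log axis by library for pituitary, choroid plexus and striatal genes, methylphenidate lineage (MPH) left and saline lineage right of the dotted lines, with lines that only join the points of 1 gene within a lineage. Gh and Prl stand at 720 and 518 counts in methylphenidate replicate 3, Cldn2 and Ttr are lowest in that library and in saline replicate 1, and Gpr101 lies at 70 to 117 counts in the methylphenidate and 2 to 20 in the saline libraries.

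Krt20, an intermediate filament gene of the gut lining and of Merkel cells, had 100, 103 and 89 counts in the methylphenidate libraries and 47, 34 and 0 in the saline libraries. The lineages did not overlap, with means of 3.81 ± 0.29 CPM in the methylphenidate lineage and 1.04 ± 0.93 CPM in the saline lineage (SD, n = 3 each). Its log2 fold change was 1.86 (SE 0.75, edgeR adjusted p = 0.627), and 2.49 without saline replicate 1. The epithelial keratin gene Krt8 had 14, 18 and 2 counts in the methylphenidate libraries and 0, 20 and 13 in the saline libraries. Its partner Krt18 had 13, 12 and 8 counts in the methylphenidate libraries and 23, 56 and 12 in the saline libraries. The lineages overlapped in both.

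Scd4, a member of the stearoyl-CoA desaturases, which make monounsaturated fatty acids, had 185, 8 and 188 counts in the methylphenidate libraries and 4, 0 and 144 in the saline libraries. Each lineage thus held animals with high and animals with low counts. Scd3 had 305, 142 and 274 counts in the methylphenidate libraries and 197, 182 and 319 in the saline libraries. It was highest in the 3 animals in which Scd4 was on. The brain's main desaturase gene Scd2 had 37382, 41577 and 39845 counts in the methylphenidate libraries and 39726, 32496 and 34303 in the saline libraries, and did not follow Scd4. Scd1 had 297, 201 and 237 CPM in the methylphenidate libraries and 225, 191 and 256 CPM in the saline libraries. By CPM it too was highest in the 3 animals in which Scd4 was on. By unscaled count it was not, with 5915 in saline replicate 1 against 5754 in methylphenidate replicate 3.

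Gm14443 and Gm22009 shared no exonic bases with another row in GENCODE M21. Gm14443, whose transcript is 85.93% identical to that of Gm4631, had 37, 46 and 13 counts in the methylphenidate libraries and 110, 0 and 40 in the saline libraries. Gm22009 is annotated as a small Cajal body RNA, a class that guides the modification of spliceosomal RNAs, and such short RNAs are poorly held by a poly(A) library. It had 111, 27 and 4 counts in the methylphenidate libraries and 2, 6 and 36 in the saline libraries. The 2 rows without a symbol were absent from GENCODE M21, so their overlaps were not analysed here. ENSMUSG00000121464 had 0, 239 and 335 counts in the methylphenidate libraries and 0, 0 and 649 in the saline libraries. ENSMUSG00000120166 had 115, 140 and 0 counts in the methylphenidate libraries and 154, 3 and 8 in the saline libraries. The first was on and off in animals of both lineages. The second was on in animals of both lineages and off in 1 animal.

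By symbol, 20 of the 36 rows were Gm models, 4 were named as pseudogenes with -ps, 2 had no symbol and 10 had another name. Gm models were 55.6% of the 36 rows, against 34.8% of all rows and 4.56% of rows that reached 100 counts. The table's own gene type was protein-coding for 10 rows, noncoding RNA for 6, pseudogene for 6, unknown for 1 and missing for 13. GENCODE M21 called 26 of them protein-coding, among them all 14 that shared exonic bases on the same strand with 2 or more rows. It called 3 processed pseudogenes, 1 an unprocessed pseudogene and 1 each an antisense RNA, a long intergenic RNA, a processed transcript and a small Cajal body RNA. The symbol in the table differed from that in GENCODE M21 for 7 rows. Rps18-ps6 was Gm10260 there and typed protein-coding, and Rps18-ps4 was Gm26619 and typed a long intergenic RNA. Commd1b was Gm28048, Glo1-ps was Gm13443, and the second Septin2 row carried the older spelling Sept2. Gm10503 and Gm18736 had clone-based names. The 34 rows lay on 16 chromosomes, with the most, 6, on chromosome 11.

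The values next to the thresholds ran on without a break. The rows just inside at the upper threshold were Gm20708, Krt20, Gm14443, Gm22009 and Gpr101, with highest counts of 102, 103, 110, 111 and 117. Just outside lay Gm44503, Gm43173, Gm42047, Gm20547 and Ccl19, with highest counts of 93, 89, 87, 86 and 84. Glo1-ps, Il10rb, Gm13695, Gpr101 and Gm22009 had a lowest count of 2, at the lower threshold. A further 11 rows had a lowest count of 3 and a highest of 100 or more, among them Gm28036 with up to 459 counts, Gm13697 with up to 301 and Ecrg4 with up to 245.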

How the data were processed

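Cerebral cortex RNA was measured in 6 libraries, and groups came from the sample labels. The values that the authors deposited are raw counts per gene, as whole numbers in 1 column per library. Tools named in the submitters' processing notes are StringTie 2.2.1, HISAT2 2.2.1, fastp 0.23.4 and bcl2fastq 2.19, with build GRCm39 and no roles or order. The annotation release, the use of strand and the step to counts were not given in the sources used.

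Rows with a count of 2 or fewer and one of 100 or more were taken. Counts were tested in R 4.3.3 with edgeR 4.0.16 (filterByExpr, TMM, two-sided quasi-likelihood test, lineage as the only term), with Benjamini-Hochberg adjustment over 18327 genes and a threshold of 0.05. DESeq2 1.42.0 was an alternative, and the closing section gives the others. CPM used TMM-scaled library sizes. Each standard error was the absolute fold change over the root of its F statistic. Exon overlaps came from GENCODE M21 (GRCm38) and similar transcripts from BLAST 2.17.0. The fit was tested on simulated data. There it recovered 38.8% of the 1.5-fold, 56.7% of the 2-fold and 83.3% of the 4-fold changes. Of its 133 calls, 14 were false.

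The rows and gene lists were chosen with earlier results of these data known. The rule for named rows took called rows, rows on in one lineage and off in the other, up to 20 of highest CPM, rows with several identifiers, marker genes, neighbours within 1 Mb, rows nearest the thresholds and near-identical copies. Rows beyond it are named to account for all. Lists of gene families by symbol prefix caught unrelated symbols and were dropped. Some results on the rows described are not reported here. Within a lineage the chi-square of 2 libraries per degree of freedom was 13.0 to 19.9, so none was counted as a duplicate.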

Additional observations from a re-analysis of the deposited data

How the results depend on the processing

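The number of on-off rows, 36, was 56 with a lower threshold of 5, 80 with an upper threshold of 50 and 19 with one of 200. It was 30 with a lower threshold of 0, 32 with counts scaled to the mean library size, 35 with rows of one symbol summed, and 29 to 31 without 1 library. The 5 rows whose lineages did not overlap became 3 with a lower threshold of 0, 11 with one of 5, 13 with an upper threshold of 50, 3 with one of 200, 3 with scaled counts, and 5 to 8 without 1 library, with 8 without saline replicate 1. edgeR called 5 genes in all. It called 3 without a filter on low counts, DESeq2 called 149, and without 1 library edgeR called 2 to 26 (26, 12 and 2 without methylphenidate replicates 1, 2 and 3, and 3 and 8 without saline replicates 2 and 3). Of the on-off rows edgeR called 0, DESeq2 called 2, and without 1 library edgeR called 0 to 1. The cause of these changes was not tested. Of 55 alternative fold changes of the 5 rows with an unadjusted p under 0.05, 53 kept their direction and side of the threshold and 2 passed it, Gpr101 with DESeq2 and Gm13695 without methylphenidate replicate 1. Without 1 library the log2 fold change was -7.06 to -1.64 for Gm49527, 1.81 to 4.46 for Tmem181b-ps, -5.48 to -1.92 for Gm13695 and 1.28 to 2.49 for Krt20. Summing each row with its main overlapping row before the fit, an alternative chosen after seeing the data, gave 5 called genes of 18318 tested, 0 of them a summed row.

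Replicate numbers did not pair the animals: deviations from the lineage mean correlated at -0.04, 0.09 and -0.02 for replicates 1, 2 and 3. With a replicate block edgeR called 2 genes, 0 of them on-off rows.

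Near the thresholds, 1 or 2 counts decide whether a row is taken, and 11 of the 36 rows were too low in most libraries to test.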
